A study of Schizosaccharomyces pombe with 8 samples.

Results

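The 8 genes described here encode the cyclin-dependent kinase of fission yeast and the proteins that set its activity on the way into mitosis. They are cdc2, cdc13, cig1, puc1, cdc25, wee1, mik1 and rum1, chosen by name among the 5165 genes of the deposited table, and all 8 were found. RNA-seq libraries came from Schizosaccharomyces pombe cultures of the Δtop1 strain RF14 (h- top1::kanMX6), which lacks topoisomerase I, and of the wild-type (WT) strain 972 (h-). Each strain was either treated with 1 mM H2O2 for 30 min or left untreated, giving 4 groups of 2 libraries. All cultures were grown in the rich medium YE5S at 30ºC, all cells were of the h- mating type, and the deletion is represented by a single strain. The comparisons ask how peroxide stress changed these transcripts in each strain, and whether the loss of Top1, an enzyme that relaxes DNA supercoils, altered them before or during stress.

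Entry into mitosis in this yeast depends on Cdc2 bound to a cyclin, mostly the B-type cyclin Cdc13. The complex is held inactive while the kinases Wee1 and Mik1 keep a tyrosine of Cdc2 phosphorylated, and it is switched on when the phosphatase Cdc25 removes that phosphate. Cig1 is another B-type cyclin, Puc1 a G1-type cyclin, and Rum1 an inhibitor that binds Cdc2-cyclin complexes in G1. Much of this control acts on the proteins rather than on their mRNAs, and the present libraries measured mRNA only.

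Promoters are shown for cig1 and mik1, which fell most with H2O2, and for puc1, the only one of the 8 called higher with H2O2 as deposited. Each line runs 5′ to 3′ on the strand of the gene, from 250 bases before to 50 bases after the annotated transcript start (RefSeq, build ASM294v3). Capitals mark matches, on either strand, to 5 short motifs that were searched by their letters: ACGCGT (bound by the G1/S factor MBF), TGACGT (CRE, bound by bZIP factors such as Atf1), GTAAACA (forkhead), TTACTAA (Pap1) and CAGTCAC (HomolD).
cig1, chrIII:1226976-1227275, plus strand: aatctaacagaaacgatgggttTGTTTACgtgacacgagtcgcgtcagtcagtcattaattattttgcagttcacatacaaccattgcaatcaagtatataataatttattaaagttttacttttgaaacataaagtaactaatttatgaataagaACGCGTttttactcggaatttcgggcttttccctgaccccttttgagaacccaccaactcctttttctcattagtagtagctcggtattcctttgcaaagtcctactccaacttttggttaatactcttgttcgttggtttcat
mik1, chrII:221048-221347, plus strand: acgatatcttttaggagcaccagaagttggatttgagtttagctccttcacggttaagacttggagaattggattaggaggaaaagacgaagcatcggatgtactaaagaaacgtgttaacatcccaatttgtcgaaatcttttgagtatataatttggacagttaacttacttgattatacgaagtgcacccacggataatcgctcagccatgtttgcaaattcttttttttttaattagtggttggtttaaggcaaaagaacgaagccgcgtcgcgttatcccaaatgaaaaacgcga
puc1, chrII:3701640-3701939, minus strand: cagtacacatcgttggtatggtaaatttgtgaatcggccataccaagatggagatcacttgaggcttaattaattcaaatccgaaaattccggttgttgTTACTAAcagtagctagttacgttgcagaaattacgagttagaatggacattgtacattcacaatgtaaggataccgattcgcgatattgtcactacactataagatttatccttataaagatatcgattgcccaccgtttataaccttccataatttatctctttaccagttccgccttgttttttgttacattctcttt

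The cig1 window held ACGCGT at position -94 from the start and a forkhead match at -228. Of 5128 promoters of the same length, 3.24% held ACGCGT and 16.4% held GTAAACA. The puc1 window held TTACTAA at -151, a sequence found in 11.95% of promoters. The mik1 window held none of the 5 motifs, nor did those of cdc2, cdc25 and wee1. cdc13 had forkhead matches at -136 and -50, and rum1 a Pap1 match at -165 and a CRE match at 12, TGACGT being present in 5.97% of promoters. CAGTCAC, in 4.70% of promoters, matched no window of the 8 genes. These are matches of letters and not mapped binding sites.

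The libraries held between 16090015 and 19899720 reads on genes. The deposited normalized counts are counts divided by a factor per library, so that 1 read was worth 0.815 to 1.242 normalized counts. The 8 genes had between 286 reads (mik1 in a Δtop1 library with H2O2) and 7439 reads (cdc13 in an untreated Δtop1 library), and replicate values of a gene differed by a median of 0.14 on the log2 scale, at most by 0.51 (mik1 in WT with H2O2). The label of the strain was checked by top1 itself, which averaged 244 normalized counts in Δtop1 against 2263 in WT with H2O2, and 297 in Δtop1 against 2059 in WT without it. All 5 genes of a peroxide response list (ctt1, gpd1, srx1, hsp9 and atf1) were over 2-fold higher with H2O2 in both strains. Changes below are differences of log2(normalized count + 1) fitted with limma over 5019 genes, with Benjamini-Hochberg adjusted p-values called under 0.1. With 2 libraries a group, the smallest two-sided p that exact permutation allows for a gene taken alone is 0.333. The study describes the replicates as biological, and the p-values measure the spread between these few cultures. In bulk RNA, fewer cells in a phase of the cycle and less RNA per cell cannot be told apart.

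**Figure D1:**
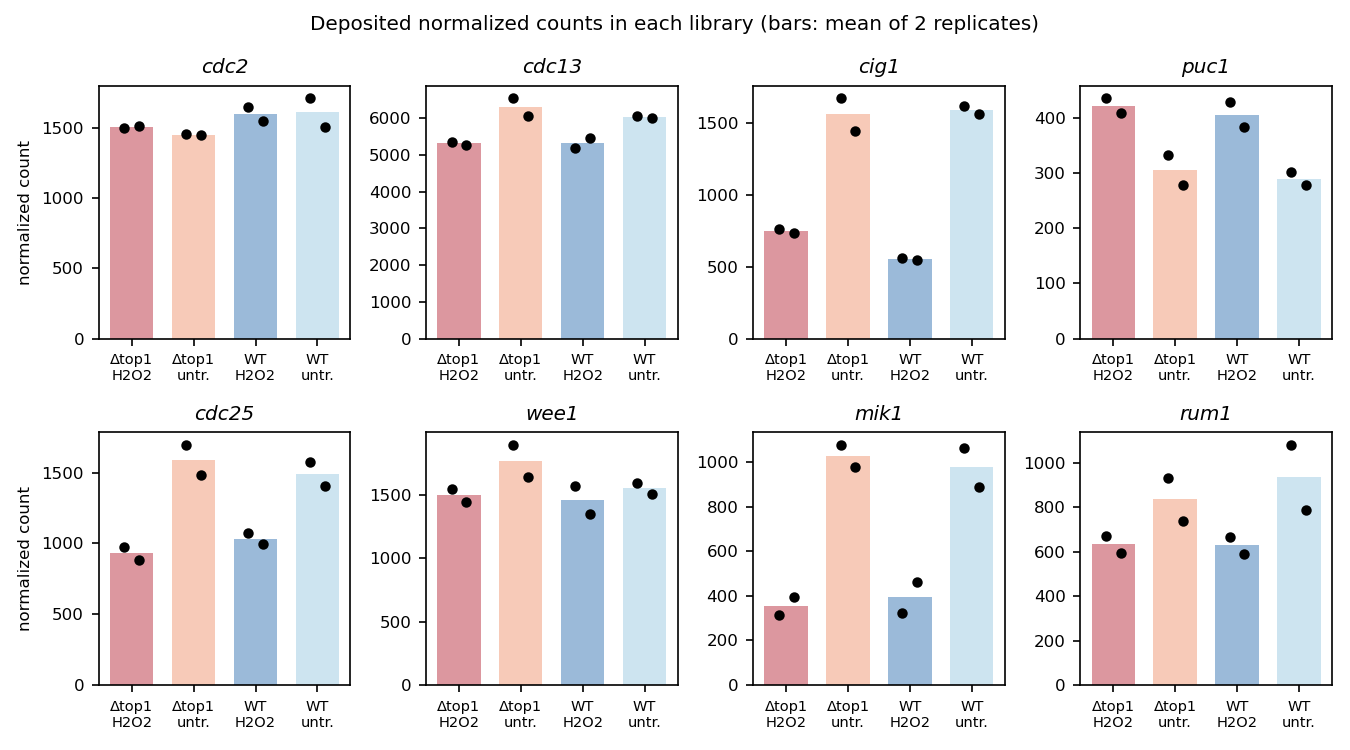
Normalized counts (vertical axes, each starting at 0) of the 8 genes in Δtop1 and WT cells with H2O2 or untreated. Points are the 2 libraries of a group and bars their mean. cig1 and mik1 stood far lower in both H2O2 groups, puc1 stood higher, and cdc2 varied little.

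Peroxide lowered most of these transcripts in both strains, and the size of the fall differed widely between genes. In Δtop1 cells 6 of the 8 fell and 1 rose, and in WT cells 5 fell and 1 rose. The response was general, since 70.8% of all tested genes were called in Δtop1 (35.9% higher and 34.9% lower) and 71.9% in WT (36.4% higher and 35.6% lower). The median change of the 8 genes was -0.32 in Δtop1 and -0.35 in WT, against a median over all genes of 0.00 in each strain. Falls of at least 2-fold were called for cig1 and mik1 only, 2 of 8 in each strain, where 10.8% of all genes in Δtop1 and 11.3% in WT fell that far (23.3% and 23.6% changed that far in either direction). The 2 libraries with H2O2 did not overlap the 2 untreated ones for 8 of 8 genes in Δtop1 (85.2% of all genes) and 6 of 8 in WT (81.6%).

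cig1 (SPCC4E9.02, chrIII:1227226-1229303, 1 exon), the B-type cyclin gene, had 762 and 737 normalized counts in Δtop1 with H2O2, against 1674 and 1446 in untreated Δtop1. In WT it had 561 and 549 with H2O2, against 1618 and 1563 untreated. The treated libraries lay far below the untreated ones in each strain, and the treated Δtop1 libraries lay above both treated WT libraries. The log2 change was -1.05 ± 0.09 (SE, limma adjusted p = 2.05e-05) in Δtop1, a fall of 2.08-fold, and -1.52 ± 0.09 (adjusted p = 2.80e-06) in WT, a fall of 2.86-fold.

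puc1 (SPBC19F5.01c, chrII:3699198-3701689, 1 exon), the G1-type cyclin gene, moved the other way. It had 436 and 408 normalized counts in Δtop1 with H2O2 against 333 and 279 untreated, and 429 and 382 in WT with H2O2 against 301 and 278 untreated. Both treated libraries of each strain were above both untreated ones. The log2 change was 0.47 ± 0.13 (limma adjusted p = 0.0118) in Δtop1 and 0.49 ± 0.13 (adjusted p = 0.00982) in WT, but the rise depended on the scaling. With every library brought to the same total, it was 0.27 (adjusted p = 0.191) in Δtop1 and 0.11 (adjusted p = 0.564) in WT, and with upper quartile scaling 0.23 (adjusted p = 0.183) and 0.19 (adjusted p = 0.263) in the same order of strains. These scalings moved the median of all genes, to -0.20 in Δtop1 and -0.37 in WT for equal totals, and to -0.24 and -0.29 for the upper quartile, so puc1 stayed above that median under each. Without the replicate 2 library of untreated Δtop1, the rise in Δtop1 was 0.34 (adjusted p = 0.103).

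cdc13 (SPBC582.03, chrII:420111-423276, 2 exons), the main mitotic cyclin gene, was the most abundant of the 8 and changed little. It had 5360 and 5269 normalized counts in Δtop1 with H2O2 against 6549 and 6063 untreated, and 5195 and 5451 in WT with H2O2 against 6067 and 6008 untreated. The groups did not overlap in either strain, and the fall was small, -0.25 ± 0.08 (limma adjusted p = 0.0270) in Δtop1 and -0.18 ± 0.08 (adjusted p = 0.0794) in WT. The WT call was lost with edgeR (adjusted p = 0.112) and DESeq2 (adjusted p = 0.109), and without any 1 of the 4 WT libraries (adjusted p between 0.116 and 0.271) or either untreated Δtop1 library (0.120 and 0.121), whose absence changed only the shared spread. The Δtop1 call was lost without the replicate 1 library of untreated Δtop1 (-0.19, adjusted p = 0.195). Quantile normalization moved the values to -0.63 in Δtop1 and -0.69 in WT.

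cdc2 (SPBC11B10.09, chrII:1500208-1502095, 6 exons), the kinase itself, had 1503 and 1511 normalized counts in Δtop1 with H2O2 against 1454 and 1447 untreated, and 1650 and 1548 in WT with H2O2 against 1714 and 1510 untreated. It was not called in either strain. The interval of its log2 change was -0.15 to 0.26 in Δtop1 and -0.21 to 0.19 in WT, so a change of 2-fold either way lay outside it. With equal library totals cdc2 was at -0.38 (adjusted p = 0.0161) in WT, beside the shift of -0.37 in the median of all genes, and at -0.15 (adjusted p = 0.287) in Δtop1.

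Among the 3 enzymes that act on the tyrosine of Cdc2, mik1 and cdc25 fell in both strains. As deposited, wee1 fell slightly in Δtop1 and was not called in WT. mik1 (SPBC660.14, chrII:221298-224117, 2 exons), the kinase gene that acts beside wee1, had 314 and 397 normalized counts in Δtop1 with H2O2 against 1080 and 980 untreated. In WT it had 326 and 463 with H2O2 against 1066 and 889 untreated. No treated library reached the lowest untreated one. The log2 change was -1.54 ± 0.19 (limma adjusted p = 0.000130) in Δtop1 and -1.32 ± 0.19 (adjusted p = 0.000313) in WT.

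wee1 (SPCC18B5.03, chrIII:721804-725835, 1 exon), the main kinase gene of the pair, had 1551 and 1443 normalized counts in Δtop1 with H2O2 against 1898 and 1641 untreated, and 1572 and 1351 in WT with H2O2 against 1598 and 1505 untreated. The WT groups overlapped and the Δtop1 groups did not. The log2 change was -0.24 ± 0.11 (limma adjusted p = 0.0843) in Δtop1 and -0.09 ± 0.11 (adjusted p = 0.491) in WT. The Δtop1 call was lost with DESeq2 (adjusted p = 0.118) and without the replicate 1 library of untreated Δtop1 (-0.13, adjusted p = 0.428) or either treated Δtop1 library (-0.29, adjusted p = 0.115, without replicate 1 and -0.19, adjusted p = 0.290, without replicate 2), and under equal library totals wee1 was called lower in WT as well (-0.46, adjusted p = 0.0160).

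cdc25 (SPAC24H6.05, chrI:479228-482373, 2 exons), the activating phosphatase gene, had 978 and 883 normalized counts in Δtop1 with H2O2 against 1699 and 1482 untreated, and 1075 and 993 in WT with H2O2 against 1579 and 1403 untreated. Treated and untreated libraries were well apart in each strain. The log2 change was -0.77 ± 0.11 (limma adjusted p = 0.000297) in Δtop1 and -0.53 ± 0.11 (adjusted p = 0.00253) in WT, and both calls held under each scaling, count test and left-out library.

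rum1 (SPBC32F12.09, chrII:2799677-2801917, 1 exon), the inhibitor gene, had 673 and 595 normalized counts in Δtop1 with H2O2 against 931 and 740 untreated, and 667 and 591 in WT with H2O2 against 1083 and 790 untreated. The groups did not overlap, but the untreated replicates lay far from each other. The log2 change was -0.39 ± 0.17 (limma adjusted p = 0.0746) in Δtop1 and -0.56 ± 0.17 (adjusted p = 0.0190) in WT. Without the replicate 1 library of the untreated strain the calls were lost, with -0.23 (adjusted p = 0.378) in Δtop1 and -0.33 (adjusted p = 0.130) in WT. The Δtop1 call was also lost without either treated library (-0.48, adjusted p = 0.104, without replicate 1 and -0.30, adjusted p = 0.280, without replicate 2) and with quantile normalization (-0.32, adjusted p = 0.133).

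**Figure D2:**
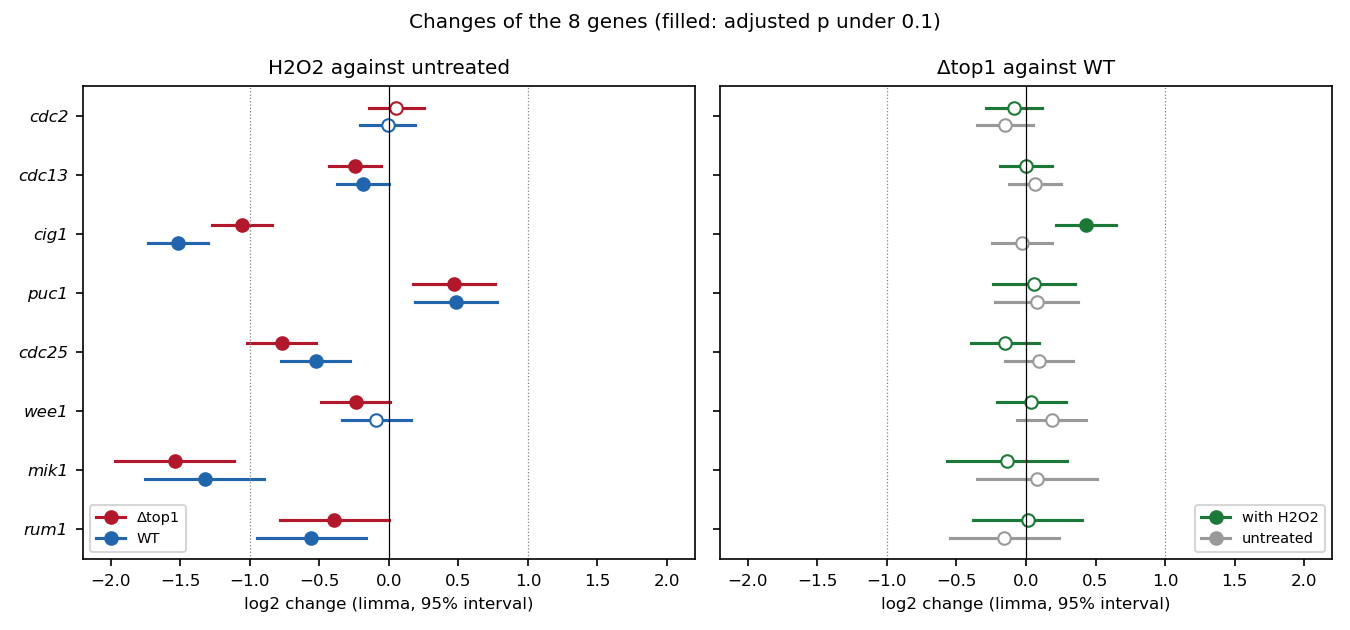
Log2 changes (horizontal axes) of the 8 genes with 95% intervals from limma, for H2O2 against untreated on the left (Δtop1 red, WT blue) and for Δtop1 against WT on the right (with H2O2 green, untreated grey). Filled points have an adjusted p under 0.1 and dotted lines mark 2-fold. On the right only cig1 with H2O2 is filled. The puc1 points on the left lose that call under equal library totals and upper quartile scaling, and the WT points of cdc2 and wee1 gain it.

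The strains were set against each other at each condition. Without stress, none of the 8 genes was called between Δtop1 and WT (limma; 0 at an unadjusted p under 0.05, and 0 with edgeR and with DESeq2), where 0.618% of all genes were called and 5.36% had an unadjusted p under 0.05. The log2 differences ran from -0.16 (rum1, interval -0.55 to 0.24) to 0.19 (wee1, interval -0.06 to 0.43). cdc2 was lower and wee1 higher in both untreated Δtop1 libraries than in both WT ones, 2 genes of 8 with no overlap against 36.6% of all genes.

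With H2O2, 1 of the 8 genes was called between the strains, against 31.8% of all genes (17.1% higher and 14.7% lower in Δtop1). cig1 was higher in treated Δtop1 than in treated WT, by 0.43 ± 0.09 on the log2 scale (interval 0.22 to 0.65, limma adjusted p = 0.0185), or 1.35-fold, short of the 2-fold that 3.03% of all genes reached. This call was lost without the replicate 1 library of treated Δtop1 (0.41, adjusted p = 0.116), when the share of all genes called between the treated strains was 8.35%. The other 7 differences lay between -0.15 (cdc25) and 0.06 (puc1), and their intervals reached at most -0.57 (mik1) on the low side and 0.40 (rum1) on the high side. cig1, cdc2 and cdc25 had no overlap between the treated strains, 3 of 8 genes against 63.3% of all.

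The difference between the strains in the response to H2O2 was tested as an interaction. It was called for 0 of 8 genes with limma, edgeR and DESeq2, against 3.96% of all genes with limma, and 1 gene, cig1, had an unadjusted p under 0.05, as 19.8% of all genes did. For cig1 the interaction was 0.46 ± 0.13 (interval 0.16 to 0.77, limma adjusted p = 0.128). Of the alternatives it passed the threshold only in limma with replicate number as a block (adjusted p = 0.0483). That fit called the interaction for 17.5% of all genes. For mik1 it was -0.22 with an interval of -0.82 to 0.39, and for cdc25 -0.24 with an interval of -0.59 to 0.10.

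Levels of different genes were compared as normalized counts per kb of annotated transcript. In all 4 groups cdc13 stood highest, at 1889 per kb in Δtop1 and 1892 in WT with H2O2, and at 2242 in Δtop1 and 2146 in WT untreated. cdc2 followed, between 935 and 1039 per kb in the group means. Below them the order differed by treatment. cig1 was next in the untreated groups, at 751 per kb in Δtop1 and 765 in WT. With H2O2 it was at 360 in Δtop1, where its libraries overlapped those of wee1, and at 267 in WT, where they overlapped those of rum1. mik1 was lowest with H2O2, at 129 per kb in Δtop1 and 143 in WT, and the WT libraries overlapped those of puc1, at 163. puc1 was lowest without it, at 123 per kb in Δtop1 and 116 in WT. Of neighbours in the order, wee1 and cdc25 in treated WT did not differ beyond the spread of their libraries. The same held for cdc25 and rum1 in treated Δtop1, and for mik1 and rum1 in untreated Δtop1. In untreated WT it held for cdc25 and rum1, for rum1 and wee1, and for wee1 and mik1. Both cdc25 libraries there (461 and 518 per kb) lay above those of wee1 (at most 396) and mik1 (at most 387).

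Ratios taken within a library do not depend on how libraries were scaled. They were computed per kb and are given without a test. The ratio of cdc25 to wee1 was 0.835 and 0.810 in treated Δtop1 against 1.185 and 1.195 in untreated Δtop1, and 0.905 and 0.973 in treated WT against 1.31 and 1.23 in untreated WT. Per kb, the phosphatase transcript thus stood below that of wee1 in every treated library and above it in every untreated one. The crossing rests on the annotated lengths, 3046 bases for cdc25 and 4032 for wee1. Before division by length, cdc25 counts lay below those of wee1 in every library. The change of the ratio with H2O2 does not depend on the lengths. The ratio of mik1 to wee1 was 0.297 and 0.403 in treated Δtop1 against 0.834 and 0.875 untreated, and 0.303 and 0.502 in treated WT against 0.977 and 0.866 untreated. With both kinases added together the balance was nearly level, since the ratio of cdc25 to wee1 plus mik1 was 0.644 and 0.577 in treated Δtop1 against 0.646 and 0.638 untreated, and 0.694 and 0.648 in treated WT against 0.661 and 0.662 untreated. The treated and untreated libraries overlapped for this sum in each strain, with mean differences of -0.07 in Δtop1 and 0.02 in WT on the log2 scale.

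The makeup of the 3 cyclin transcripts shifted with H2O2. cig1 made up 14.98% and 14.8% of their summed per-kb level in treated Δtop1 against 24.7% and 23.5% untreated, and 11.8% and 11.2% in treated WT against 25.5% and 25.1% untreated. puc1 made up 7.15% and 6.85% in treated Δtop1 against 4.09% and 3.78% untreated, and 7.52% and 6.52% in treated WT against 3.95% and 3.72% untreated. cdc13 held the rest, between 70.6% and 82.3% in all 8 libraries. The ratio of cdc13 to cdc2 was 1.97 and 1.92 in treated Δtop1 against 2.48 and 2.31 untreated, and 1.74 and 1.94 in treated WT against 1.95 and 2.19 untreated, so it was lower in the treated libraries of each strain by a narrow margin in WT.

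**Figure D3:**
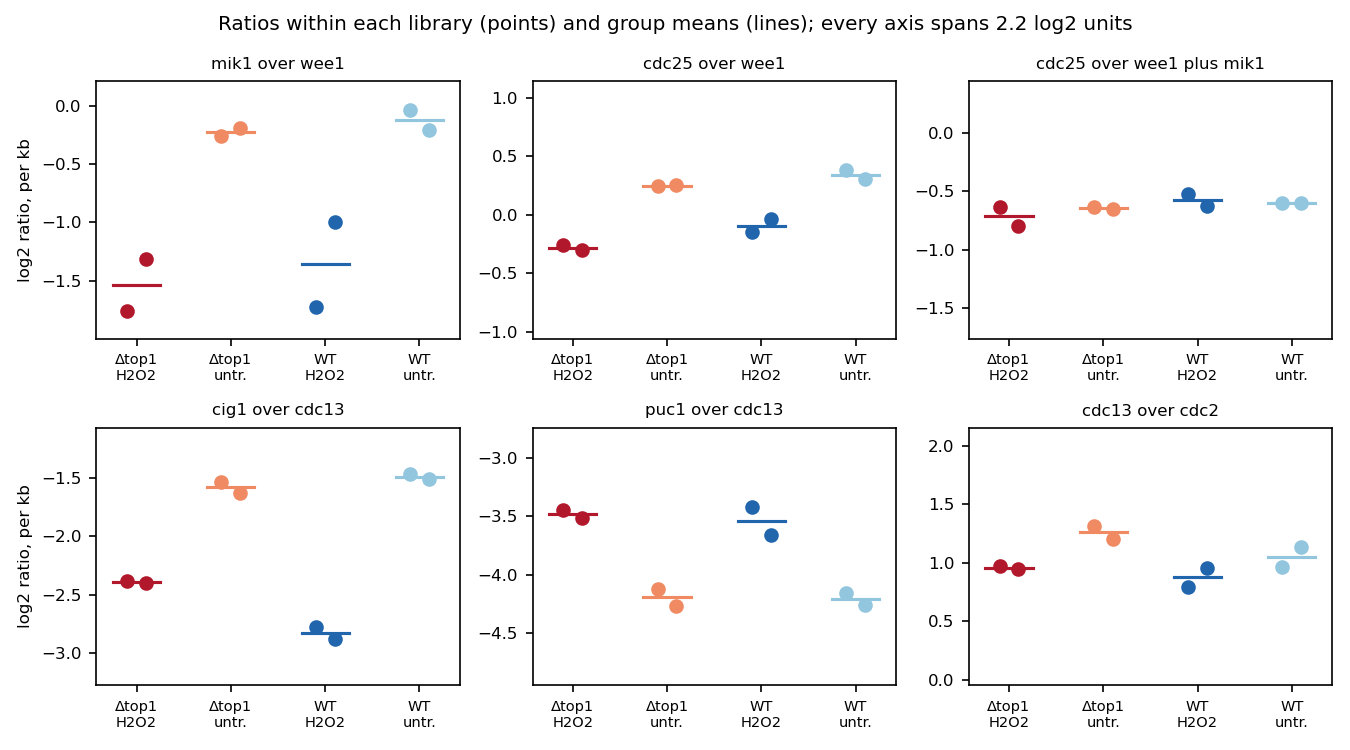
Log2 ratios of per-kb levels within each library (vertical axes, all spanning the same width) in Δtop1 and WT with H2O2 or untreated. Points are libraries and lines group means. mik1 over wee1, cdc25 over wee1 and cig1 over cdc13 were lower with H2O2, puc1 over cdc13 was higher, and cdc25 over wee1 plus mik1 overlapped.

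Genes whose pattern over the 8 libraries was most like that of cig1, which fell most in WT, and of puc1, which rose most in WT, were found by the root mean square difference of centred log2 values. For cig1 they were SPAC1039.08 (0.0699), spp1 (0.0795) and SPBC30B4.06c (0.0801), against a median of 0.685 over all genes. For puc1 they were css1 (0.0413), SPBC660.17c (0.0576) and sft2 (0.0585), against a median of 0.394.

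The wider network around these genes was described by 5 lists. Their counts with H2O2 stand against 35.9% of all genes higher and 34.9% lower in Δtop1, and 36.4% higher and 35.6% lower in WT. With equal library totals these shares were 26.9% and 45.8% in Δtop1, and 21.3% and 56.2% in WT. With quantile normalization they were 32.7% and 40.3% in Δtop1, and 32.7% and 41% in WT. Of 6 CDK partners and subunits of the CDK-activating kinase, 3 fell and 1 rose in Δtop1, and 2 fell and 1 rose in WT. With equal library totals 4 fell and 1 rose in Δtop1, and 4 fell and 0 rose in WT. cig2, the S-phase B-type cyclin, averaged 834 normalized counts in treated Δtop1 against 1990 untreated, and 699 in treated WT against 1881 untreated, a change of -1.26 and -1.42 in the same order (limma adjusted p = 3.31e-05 and 1.70e-05). suc1, a small protein that binds Cdc2, was not called with H2O2 in either strain, and between the treated strains it was lower in Δtop1 (-0.48, adjusted p = 0.0174), a call lost with equal library totals (-0.33, adjusted p = 0.106). Of 6 regulators of Wee1, among them the kinases Cdr1, Cdr2 and Pom1, 4 fell and 1 rose in Δtop1 and 3 fell and 1 rose in WT, none by 2-fold. With equal library totals 5 of these 6 fell and 0 rose in each strain.

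Of 10 genes that act on Cdc25 or on the tyrosine of Cdc2, 5 rose and 3 fell in Δtop1 and 5 rose and 4 fell in WT. With equal library totals 4 rose and 5 fell in Δtop1, and 5 rose and 5 fell in WT. srk1 encodes a kinase downstream of the stress MAP kinase Sty1 that phosphorylates Cdc25, and it averaged 20948 normalized counts in treated Δtop1 against 1181 untreated, and 20827 in treated WT against 1409 untreated. Its log2 change was 4.15 in Δtop1 and 3.89 in WT (limma adjusted p = 1.24e-08 and 1.21e-08). pyp3, a phosphatase that can act on the same tyrosine as Cdc25, rose by 1.77 in Δtop1 and 1.57 in WT, and cds1, the replication checkpoint kinase, by 1.097 in Δtop1 and 0.81 in WT. The Polo kinase gene plo1 fell by 0.85 in Δtop1 and by 1.11 in WT, and cut12, a spindle pole body gene, fell by 1.11 in Δtop1 and by 1.26 in WT. Between the treated strains plo1 (0.57) and cds1 (0.33) were higher in Δtop1 (limma adjusted p = 0.00906 and 0.0250). Between the untreated strains plo1 was at 0.31 without overlap of the libraries, though not called (adjusted p = 0.654), and cds1 was at 0.04. Neither interaction was called (limma adjusted p = 0.350 for plo1 and 0.217 for cds1).

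Of 19 genes for the destruction of cyclins and Rum1, mostly subunits of the anaphase-promoting complex (APC) and of SCF, 11 fell and 3 rose in Δtop1 and 15 fell and 1 rose in WT. With equal library totals 15 fell and 2 rose in Δtop1, and 17 fell and 1 rose in WT. slp1, the mitotic activator of the APC, averaged 232 normalized counts in treated Δtop1 against 1692 untreated, and 309 in treated WT against 1933 untreated, a log2 change of -2.86 and -2.64. ste9, listed as srw1 in the table and an APC activator of G1, changed by -1.60 in Δtop1 and -1.49 in WT. The APC subunit genes cut23 (-0.76 in Δtop1 and -1.09 in WT) and apc15 (-1.05 and -0.99) fell in both strains. apc10 was called only in WT (-1.12, against -0.37 with an adjusted p of 0.131 in Δtop1) and apc13 only in Δtop1 (-1.04, against -0.57 with an adjusted p of 0.101 in WT), while upper quartile scaling called both genes lower in both strains, and neither interaction was called (limma adjusted p = 0.1998 for apc10 and 0.546 for apc13). Between the treated strains 9 of the 19 were higher and 1 lower in Δtop1, against 17.1% higher and 14.7% lower among all genes. With quantile normalization 6 were higher and 1 lower, against 13.8% and 12.4% of all genes. With equal library totals 9 were higher and 0 lower, against 29.9% and 8.09% of all genes. As deposited, apc10 (0.69) and cut23 (0.38) were among the higher ones and slp1 (-0.41) was the lower one. The counts of the lists were not redone with libraries left out, so how far they rest on a single library was not tested. The slp1 call was lost with equal library totals (-0.26, adjusted p = 0.172) and that of cut23 with quantile normalization (0.26, adjusted p = 0.185).

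Of 10 genes for the Greatwall kinases, their target Igo1 and the phosphatases PP2A and PP1, 6 rose and 2 fell in each strain, but with equal library totals 3 rose and 2 fell in Δtop1 and 3 rose and 5 fell in WT, and with quantile normalization 3 rose and 3 fell in Δtop1 and 4 rose and 6 fell in WT. ppa2, a PP2A catalytic subunit, rose by 0.93 in Δtop1 and 1.02 in WT, and igo1, listed as mug134 in the table, by 0.72 in Δtop1 and 1.01 in WT.

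Markers of cell cycle phases moved with H2O2 beside these genes. Their counts stand against 35.9% of all genes higher and 34.9% lower in Δtop1, and 36.4% higher and 35.6% lower in WT. With equal library totals these shares were 26.9% and 45.8% in Δtop1, and 21.3% and 56.2% in WT. Of 8 genes expressed in mitosis, 7 fell in each strain, and their summed level was 5934 to 6314 normalized counts in treated Δtop1 against 12822 to 12867 untreated, and 5679 to 5876 in treated WT against 11841 to 12552 untreated. All 7 cell separation genes fell in both strains, with sums of 12813 to 14560 in treated Δtop1 against 37444 to 39573 untreated, and 13729 to 16296 in treated WT against 42986 to 44127 untreated. Of 9 S-phase genes controlled by MBF, 3 rose and 3 fell in Δtop1 and 3 rose and 4 fell in WT, with sums of 33936 to 36238 in treated Δtop1 against 29392 to 30030 untreated, and 31141 to 36313 in treated WT against 28482 to 29519 untreated. The marker sums are on the deposited scale, on which whole libraries also summed to more with H2O2. Library totals were 17657867 and 19121368 normalized counts in treated Δtop1 against 15738317 and 16217953 untreated. In WT the totals were 20029904 and 20768094 treated against 15174360 and 16345769 untreated. With equal library totals 2 of these S-phase genes rose and 6 fell in WT, with a median of -0.40 beside -0.02 as deposited, and 3 rose and 4 fell in Δtop1. Of 9 core histone genes, 2 rose and 6 fell in Δtop1 and 3 rose and 4 fell in WT, and their sums of 101535 to 111355 in treated Δtop1 lay below 114817 to 120360 untreated, while the WT sums overlapped (98612 to 124802 treated and 103757 to 126634 untreated). With equal library totals 2 histone genes rose and 6 fell in each strain. No marker of these lists was at 0 in a whole group. The lists share plo1, slp1 and cig2 with the network lists above, and their part in the changes of the 8 genes was not tested.

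**Figure D4:**
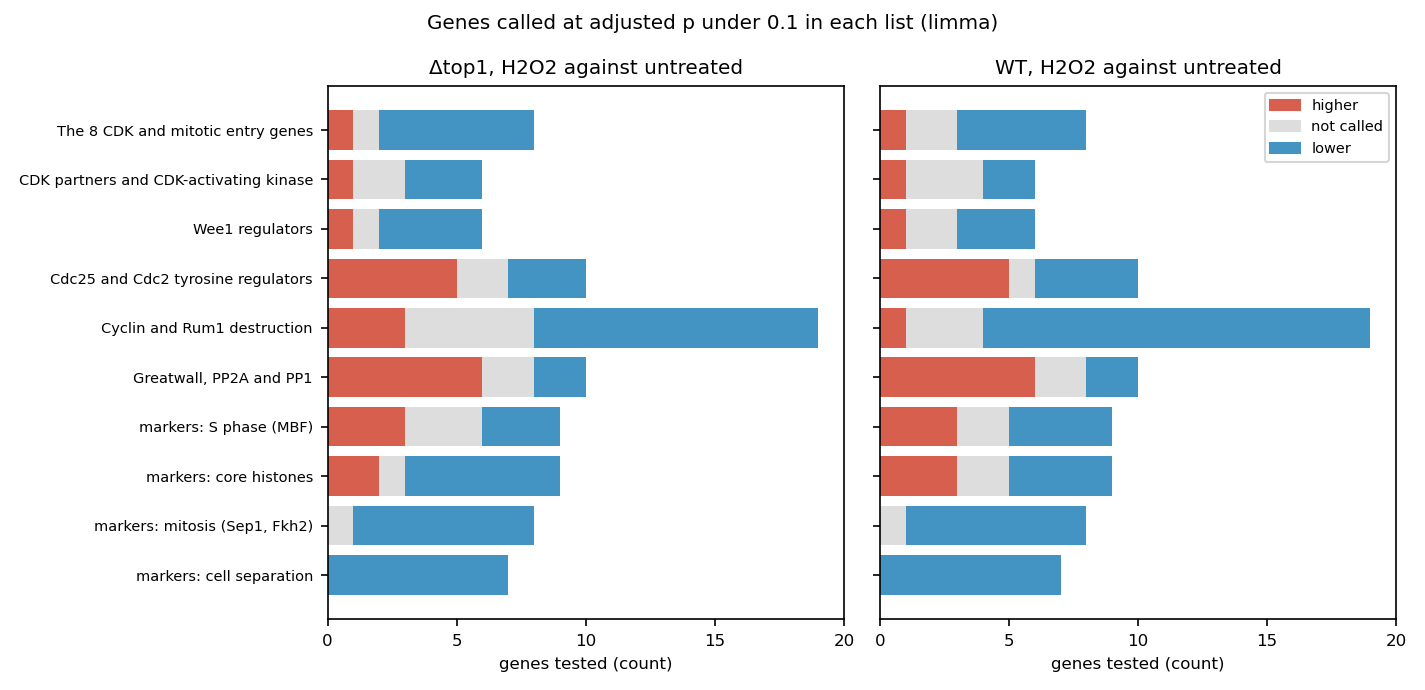
Number of tested genes (horizontal axes) called higher (red), not called (grey) or lower (blue) with H2O2 in Δtop1 on the left and WT on the right, for the 8 genes, 5 network lists and 4 marker lists. The mitosis and cell separation markers have no gene called higher in either strain.

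In the annotation, mik1 lies for 86.8% of its length opposite the non-coding RNA SPNCRNA.4612. cdc2 is overlapped on the other strand by SPNCRNA.1438 (31.3%) and SPNCRNA.5213 (18.1%), cig1 by SPNCRNA.7274 (25.3%) and puc1 by SPNCRNA.6243 (29.9%) and shorter stretches of 3 other genes. cdc13 and cdc25 have antisense overlaps of 10.3% and 6.42%, and wee1 and rum1 none. The library kit keeps the strand, but the strand setting of the counting was not given in the sources used here, so sense and antisense reads over these stretches cannot be told apart here. None of the 8 transcripts shared a word of 31 bases with another transcript.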

How the data were processed

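RNA-seq counts per gene were deposited by the authors as normalized counts (signal), raw counts divided by a DESeq2 size factor per library. The submitters' processing notes name FastQC, Trimmomatic, STAR, HTSeq and DESeq2 with build ASM294v2, while the methods of the study name Salmon for quantification; which made this table, and the strand setting of counting, are not given in the sources used here. Libraries were poly(A)-selected with a stranded kit. The values of 1 read per library were recovered from the table, and 5164 of 5165 genes (99.98%) came out as whole reads within 0.01 in each library.

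Groups followed the labels. limma 3.58.1 (R 4.3.3) with trend was fitted to log2(normalized count + 1) for 5019 genes averaging 10 or more normalized counts, with 1 mean per group over all 8 libraries and Benjamini-Hochberg adjustment over all genes. A fold change on this scale understates the change of low genes. edgeR 4.0.16 and DESeq2 1.42.0 on recovered reads, other pseudocounts (0.5 and 5), filters (none and 50), scalings, thresholds, a replicate block and left-out libraries were alternatives. Promoters and locations came from ASM294v3 by gene ID (5129 of 5165 matched), and no coordinates were carried between builds. All 8 genes were named. Of the other network genes, those called with a change of at least 2-fold in a comparison of 2 groups, or called for the interaction, were named with their values, together with cig2, suc1, pyp3 and srk1. Mating-type markers were also checked. With H2O2 mfm2 and map3 were called lower in both strains, and mam1, map2 and mam2 were called lower in WT only. Among all genes 34.9% were called lower in Δtop1 and 35.6% in WT. A further marker gene and a further motif are not reported here. The members and lists were chosen with earlier results of these data known.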

Additional observations from a re-analysis of the deposited data

How the results depend on the processing

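Across 40 results (8 genes in 5 comparisons), 15 settings with all libraries and 8 left-out libraries, no called change reversed its direction. Of 904 values of single genes, 860 kept their side of the threshold, 39 lost a call and 5 gained one. Among those that kept it, 41 uncalled values changed sign while staying uncalled. The cause of the lost and gained calls was not tested. Requiring at least 2-fold left 2 genes called with H2O2 in Δtop1, 2 in WT, and 0 between the treated strains. Leaving out 1 library of the groups compared lowered the share of all genes called with H2O2 in each strain. In Δtop1 that share was lowest without the replicate 1 library of untreated Δtop1. The counts that follow for the 8 genes stand beside that fall. With 1 library left out, the genes called numbered 4 to 7 in Δtop1 with H2O2 (4 without the replicate 1 library of untreated Δtop1), 4 to 6 in WT, 0 to 1 between the treated strains (0 without the replicate 1 library of treated Δtop1), and 0 to 0 both between the untreated strains and for the interaction; a lone library was then assumed to vary like the other groups.

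Equal library totals changed the split of all calls to 26.9% higher and 45.8% lower with H2O2 in Δtop1 (35.9% and 34.9% as deposited), to 21.3% and 56.2% in WT (36.4% and 35.6%), to 29.9% and 8.09% between the treated strains (17.1% and 14.7%), and to 4.54% and 1.08% for the interaction (2.13% and 1.83%). Upper quartile scaling gave 26.5% and 49.6% in Δtop1 and 24.0% and 52.7% in WT. The changes of cig1, mik1 and cdc25 with H2O2 were called under all these settings except that cdc25 falls short of 2-fold.

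The labels name no batch behind the replicate numbers, and deviations of same-numbered libraries correlated by 0.07 to 0.62 between groups over 5019 genes. In the fit with a replicate block the interaction was called for 1 of the 8 genes, cig1 (0.46, adjusted p = 0.0483), where that fit called 17.5% of all genes against 3.96% without the block, and no other call of the 8 genes changed.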
